A study of Mus musculus with 8 samples.

Results

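A pair of Piwi triple knockout mouse iPSC clones, TKO 35 and TKO 37, was compared with a pair of control clones, Ctrl 33 and Ctrl 34. They are 4 of the 8 clones whose RNA was sequenced. The 4 clones were chosen by number, as those numbered in the thirties. The rule uses no measured value, but earlier results of these data were known when it was set. All clones were derived from mouse embryonic fibroblasts (MEFs) of mixed genetic background that carried the Oct4-GFP reporter, and the fibroblasts had been reprogrammed with retroviruses for OCT4, SOX2, KLF4 and c-MYC. The labels give TKO as Piwi triple knockout and Ctrl as control. The study's methods describe TKO cells as lacking functional *Miwi*, *Mili* and *Miwi2*, and controls as littermates, triple heterozygous in 1 passage and wild type or heterozygous in another. Colonies were picked onto feeder layers of inactivated MEFs and grown in serum with LIF. Each library is 1 clone, and neither the embryo a clone came from nor the meaning of its number is given, so the p-values below measure the spread between these clones. With 2 clones a genotype an exact two-sided permutation test cannot give a p below 0.333, so tests were made across all records at once.

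PIWI proteins are the germline branch of the Argonaute family. They bind piRNAs and silence transposable elements, mainly in the male germline, and the mouse has MIWI (gene Piwil1), MILI (Piwil2) and MIWI2 (Piwil4). iPSCs are somatic cells returned to a pluripotent state that resembles that of embryonic stem cells, in which Oct4, Sox2 and Nanog form the core transcription network and LIF, BMP, Nodal and FGF signals tune self-renewal.

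The libraries held 8983203 (Ctrl 33), 17216692 (Ctrl 34), 45005422 (TKO 35) and 52457455 (TKO 37) counts, so depth and genotype went together. Of 27052 RefSeq records, 16775 were tested because they reached 5 reads in 2 or more of these libraries, and 1282 of these reached 5 reads in both TKO and neither Ctrl library, against 12 the other way. The TKO clones resembled each other more than the Ctrl clones did. Over records with at least 100 normalized counts (reads divided by a size factor of the library), the SD of the log2 difference was 0.143 between TKO 35 and TKO 37 and 0.451 between Ctrl 33 and Ctrl 34. The reads of TKO 35 and TKO 37 still differed beyond sampling noise in 32.9% of records, where 5% would be expected of 1 library sequenced again, so they were counted as 2 samples. Ctrl 34 stood apart on chromosomes 11 and X. Its median log2 ratio to the mean of the 4 clones was 0.26 on chromosome 11, where the other 3 clones had -0.07 to -0.10, and 0.28 on X, where Ctrl 33 had -0.20. Markers of naive and core pluripotency were expressed in every clone, none of 27 was at 0, and their summed level was 220699, 272317, 243650 and 239833 normalized counts in the order of the clone numbers.

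**Figure D1:**
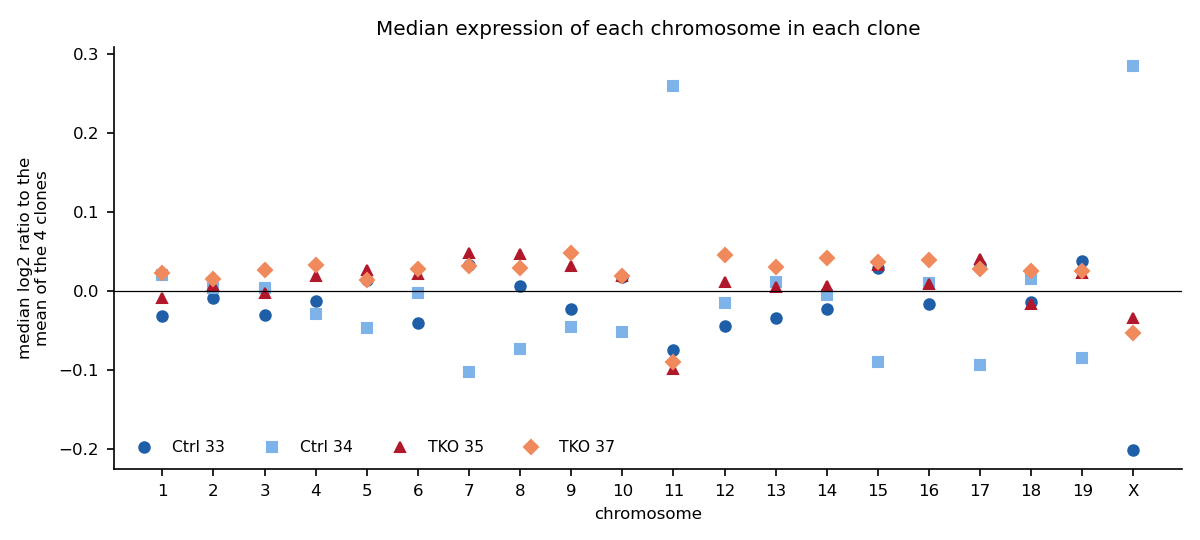
Median over records of the log2 ratio of a clone's normalized count to the mean of the 4 clones, by chromosome, for records with at least 100 normalized counts. Ctrl 34 (squares) is at 0.26 on chromosome 11 and at 0.28 on X, and the other 3 clones lie below 0 on both.

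The targeted genes were examined first. *Mili* (Piwil2, NM_021308, mm9 chromosome 14 from 70772287 to 70828901) had 746 and 869 normalized counts in Ctrl 33 and Ctrl 34 and 9870.1 and 9864 in TKO 35 and TKO 37. The TKO values were close to each other and all above the Ctrl values, with a log2 fold change of 3.61 (SE 0.12, edgeR quasi-likelihood test with Benjamini-Hochberg adjustment, adjusted p = 0.000366). *Miwi2* (Piwil4, NM_177905, chromosome 9 from 14500674 to 14545177) had 756 and 607 counts in Ctrl against 2802 and 2676 in TKO clones, again without overlap (2.01, SE 0.14, adjusted p = 0.00809 in the same test). *Miwi* (Piwil1, NM_021311, chromosome 5 from 129242121 to 129261349) was close to the limit of detection. It had 3 and 20 reads in the Ctrl and 8 and 5 reads in the TKO libraries, which is 7.99, 28.2, 4.43 and 2.36 normalized counts, and did not pass (log2 fold change -2.59, SE 0.65, adjusted p = 0.0666). Per kilobase of record, Ctrl 33 had more *Miwi2* than *Mili* (287 against 152) and so had Ctrl 34 (230.3 against 177), while TKO 35 (1062 against 2009) and TKO 37 (1015 against 2008) had more *Mili*. The study gives the *Mili* allele as a deletion of a few early exons, the *Miwi2* allele as one with inserted stop codons and the *Miwi* allele as a replacement by GFP, so whole-record counts of *Mili* and *Miwi2* do not check the knockout.

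Between the genotypes 415 records (2.47% of those tested) had an adjusted p under 0.05 and a change of at least 2.5-fold, and 82 were higher (0.489%) and 333 lower (1.99%) in TKO iPSCs. With no threshold on the fold, 1016 records (6.06%) passed, of which 387 were higher (2.31%) and 629 lower (3.75%). Without overlap between the genotypes, and with no test, 30.1% of records were higher and 28.3% lower in TKO clones. The number of calls depended on single clones. Without Ctrl 33 or Ctrl 34 it was 1210 or 978, and without TKO 35 or TKO 37 it was 61 or 50, where the lone clone is assumed to vary like the pair of the other genotype. The balance moved most without Ctrl 33, where 513 records were higher and 697 lower. A total of 41 records, 10 higher and 31 lower, passed in all of these fits, and the genes below that belong to them are named as such. A test against the 2.5-fold change itself left 7 records.

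**Figure D2:**
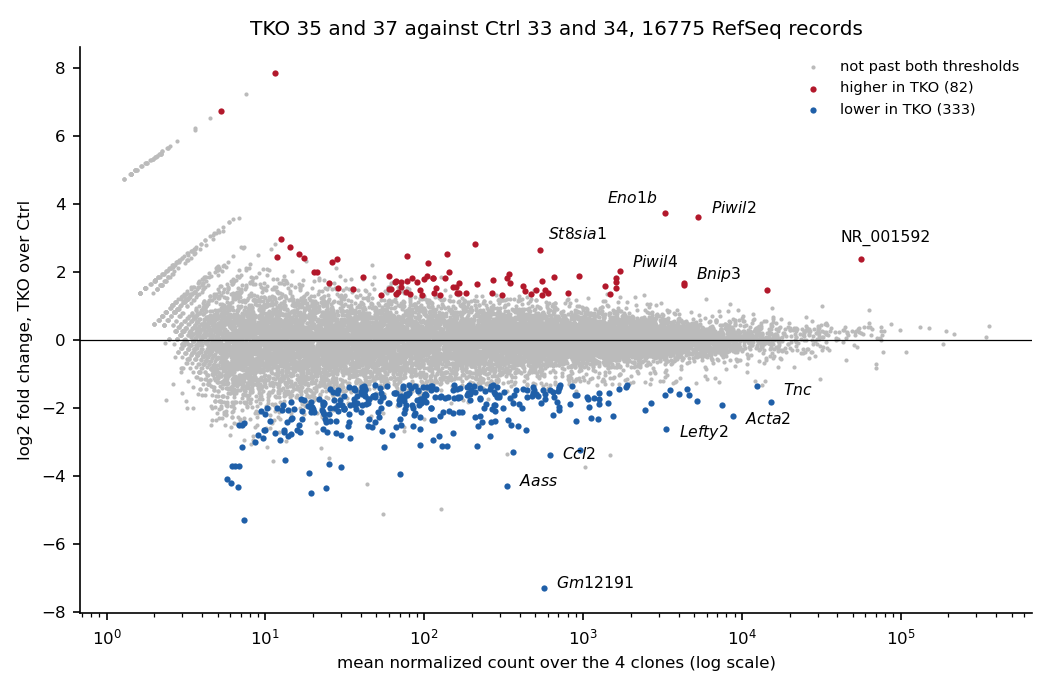
Each point is 1 of 16775 RefSeq records, with the mean normalized count over the 4 clones on the horizontal axis (log scale) and the fitted log2 fold change of TKO over Ctrl on the vertical axis. Of the coloured records, past both thresholds, 82 lie above and 333 below 0, and the streaks at the upper left are records with 0 to a few reads in the Ctrl libraries, whose fitted fold depends on the prior count.

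The largest fall was in Gm12191 (NR_028101, a noncoding record of 524 bases, chromosome 11 from 49492212 to 49492559). It had 1121 and 1126 normalized counts in the Ctrl and 6.65 and 7.57 in the TKO clones, a log2 fold change of -7.28 (SE 0.21, edgeR quasi-likelihood test, adjusted p = 0.000244). Aass (chromosome 6 from 23022173 to 23082986), whose product starts lysine degradation in mitochondria, had 735 and 526 counts in Ctrl against 32.7 and 31.2 in TKO clones (-4.29, SE 0.25, adjusted p = 0.00474). The noncoding records AI662270 (1694 and 1763 against 206 and 160.3), Gm5779 (762 and 561 against 64.2 and 68.6) and NR_033599 (248 and 214 against 29.9 and 23.2) fell by 3.24, 3.31 and 3.11 on the log2 scale. All of these had no overlap between the genotypes and are among the 41 records called without each clone. Olr1, a scavenger receptor for oxidized lipoprotein, was at 232 and 169 in Ctrl and at 26.0 and 25.5 in TKO clones (-2.94, adjusted p = 0.0138) and is also among the 41. Trpa1, an ion channel gene of sensory neurons (-2.82), and Ivl, the involucrin gene of keratinocytes (-2.87), passed as well (adjusted p = 0.0202 and 0.0211), but neither did without TKO 35, nor Ivl without TKO 37.

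Among the genes that rose, Eno1b, a copy of the enolase gene Eno1, had 581 and 365 normalized counts in Ctrl against 6542 and 5683 in TKO clones (log2 fold change 3.72, SE 0.23, adjusted p = 0.00520 from edgeR). Of the 50-base sequences of Eno1b, 76.5% are also found in Eno1, and the rule for reads with more than 1 match is not given in the sources used here. Eno1 itself had 16821 and 11743 counts in the Ctrl clones, 18135 in TKO 35 and 5744 in TKO 37, so it did not separate the genotypes. The largest rise in absolute counts was in the noncoding record NR_001592 (2615 bases), from 23436 and 12863 to 83247 and 106361 (2.39, SE 0.29, adjusted p = 0.0182). St8sia1, a sialyltransferase that makes the ganglioside GD3, rose from 117 and 172 to 924 and 933 (2.65, SE 0.21, adjusted p = 0.0115). Tmprss2, a membrane serine protease gene, rose from 34.6 and 45.1 to 225 and 249.7 (2.54) and Pygl, the liver glycogen phosphorylase gene, from 296 and 278 to 1067 and 983 (1.84). Eno1b, NR_001592, St8sia1, Tmprss2 and Pygl are among the 41 as well, and in each of them both TKO clones lay above both Ctrl clones. The secretory pathway calcium pump gene Atp2c2 (2.45), the glycosyltransferase gene B3gnt3 (2.26), the transcription factor gene Bhlha15 (1.99), Prss42 (1.95), Paqr6 (1.84) and the record NM_001081663 (1.89) passed as well (adjusted p from 0.0202 to 0.0415) and lost the call both without TKO 35 and without TKO 37.

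**Figure D3:**
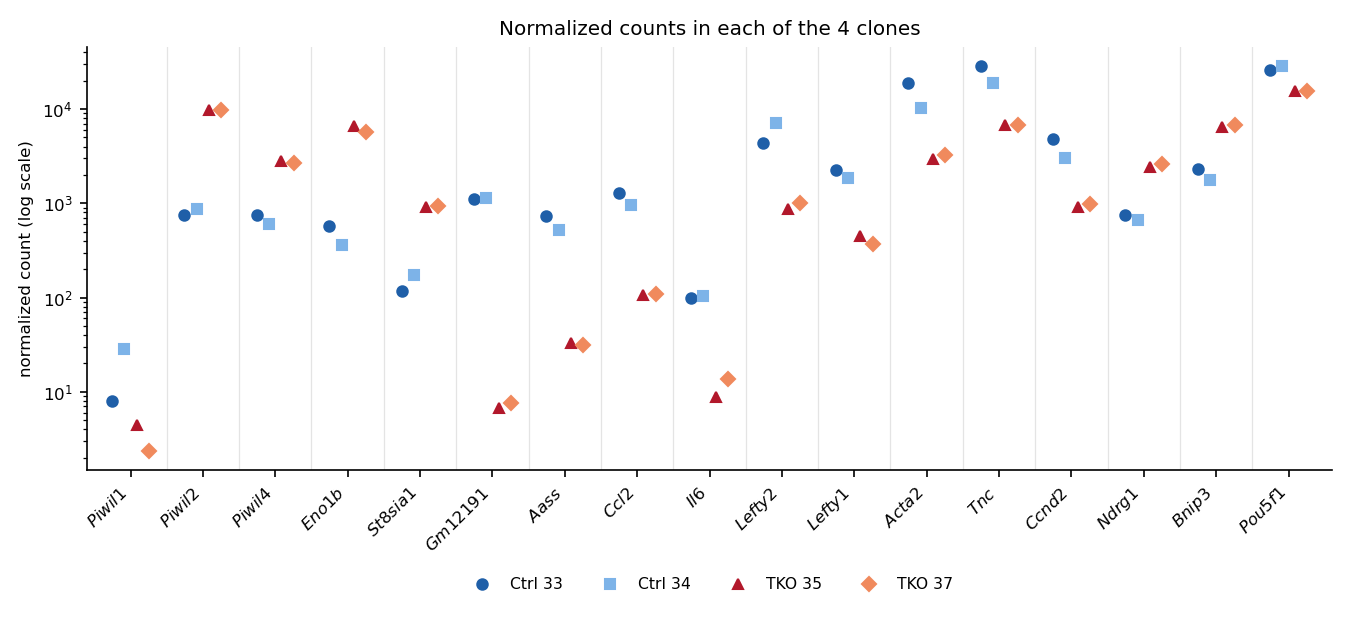
Normalized counts (log scale) of 17 genes in Ctrl 33 (circles), Ctrl 34 (squares), TKO 35 (triangles) and TKO 37 (diamonds). The TKO clones lie close together for most genes, and Ctrl 33 and Ctrl 34 differ more, as for Acta2 with 18757 and 10249 counts.

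Hypoxia targets rose in TKO 35 and TKO 37. Under low oxygen, prolyl hydroxylases of the Egln family stop marking HIF alpha subunits for degradation, and HIF then binds the sequence ACGTG near genes of glycolysis, mitophagy and oxygen sensing. Of 23 hypoxia targets tested, 10 had an adjusted p under 0.05 in edgeR's test and all of these were higher in TKO iPSCs, against 2.31% of all records. None of the 23 had a change below 0, and the median was 0.83, where all records had a median of 0.00. Ndrg1 (chromosome 15 from 66760883 to 66801202), a stress response gene, had 754 and 671 normalized counts in Ctrl against 2446 and 2585 in TKO clones (1.82, SE 0.13, adjusted p = 0.00763). Bnip3 (chromosome 7 from 146082519 to 146101202), which encodes a mitophagy receptor, had 2325 and 1783 against 6403 and 6735 (1.68, SE 0.15, adjusted p = 0.0130). Both are among the 41 records called without each clone, and their TKO values exceeded the Ctrl values in every pairing. Ndufa4l2, a mitochondrial protein gene induced by HIF, rose from 93.2 and 22.5 to 405 and 319 (2.81, SE 0.53, adjusted p = 0.0389), with the Ctrl clones 4-fold apart. Fam162a (1.14), Ankrd37 (1.07), the prolyl hydroxylase gene Egln1 (0.94), Ero1a (0.83), Higd1a (0.69), the collagen prolyl hydroxylase gene P4ha1 (0.67) and the mitophagy receptor gene Bnip3l (0.64) rose by less than 2.5-fold (adjusted p from 0.0233 to 0.0469).

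Of 17 glycolysis genes 5 rose and none fell, with a median of 0.66, where 2.31% of all records were higher and 3.75% lower. Aldoc, an aldolase gene, had 535 and 282 normalized counts in Ctrl against 1477 and 1464 in TKO clones (1.88, SE 0.28, adjusted p = 0.0273 from edgeR). Gpi1 (1.00), Eno2 (0.95), Tpi1 (0.95) and Pgk1 (0.89, from 41609 and 46927 to 83257 and 80564) rose as well. Of 9 HIF subunit and oxygen sensor genes 3 were lower and 1 (Egln1) higher, with a median of 0.11, and none passed in edgeR's test without TKO 35 or without TKO 37. Epas1, which encodes HIF-2 alpha, had 953 and 1044 counts in Ctrl against 307 and 313 in TKO clones (-1.69, SE 0.14, adjusted p = 0.0122), Arnt2 had 189 and 161 against 62.6 and 65.3 (-1.44, adjusted p = 0.0279), and Hif1a 5265 and 5741 against 3696 and 3865 (-0.54, adjusted p = 0.0390). The Ctrl and TKO clones did not overlap in any of the 3. Without Ctrl 33, Ctrl 34, TKO 35 or TKO 37 the hypoxia targets called were 19, 14, 2 and 2, all higher, and the glycolysis genes called higher were 15, 14, 1 and 0, with 1 lower without Ctrl 34 and 1 without TKO 35. Depth moved with genotype in these clones. With all libraries thinned to the total of Ctrl 33, 7 hypoxia targets and 4 glycolysis genes were higher, with medians of 0.88 and 0.68.

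The promoters of the hypoxia and glycolysis genes that rose are shown for the HIF core sequence ACGTG, searched on both strands (as ACGTG or CACGT) in the 300 bases around each RefSeq start site (GRCm38.p6, 250 before to 50 after). Of the 15 genes, 12 had a promoter in the RefSeq set and 9 of these held the motif, as did 16 of 24 other members of both lists with a promoter, against 21.8% of 27025 genes. The motif was chosen after the members were known and a match is only a description. In the following 30-base stretches, written 5′ to 3′ on the strand of the gene, the motif is in capitals.
Bnip3 (chr7:138909598-138909627, minus strand): ggcgcacgcgccgCACGTgccacacgctcc
Egln1 (chr8:124949306-124949335, minus strand): ggggccgtggtgtACGTGcagcgcgcgcgg
Fam162a (chr16:36071626-36071655, minus strand): tccgctcgtcgcgCACGTcccgcacgcccg
Ero1a (chr14:45318619-45318648, minus strand): gcgcgcgccgctgCACGTccgcaggggagg
Pgk1 (chrX:106186937-106186966, plus strand): cgcgtcgtgcaggACGTGacaaatggaagt

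Inhibitors and an activin subunit of the Nodal pathway fell. Nodal and activins signal through Smad2 and Smad3, Lefty proteins are secreted Nodal inhibitors that are themselves Nodal targets, and follistatin binds activin. Of 22 genes of the pathway 6 were lower and 1 higher in edgeR's test at an adjusted p under 0.05 (3.75% and 2.31% over all records), with a median of -0.31. Lefty2 (chromosome 1 from 182823239 to 182829234) had 4357 and 7159 normalized counts in Ctrl against 877 and 1009 in TKO clones (-2.61, SE 0.24, adjusted p = 0.0149). Lefty1 (chromosome 1 from 182865153 to 182868531) had 2282 and 1852 against 454 and 368 (-2.33, SE 0.17, adjusted p = 0.00932). Both genes are among the 41 records, their clones did not overlap, and 11.6% of the 50-base sequences of Lefty2 occur in Lefty1. Inhba, an activin subunit gene, had 1425 and 707 against 234 and 224 (-2.21, adjusted p = 0.0261), and Fst, the follistatin gene, 402 and 285 against 98.6 and 108 (-1.72, adjusted p = 0.0226). The ligand genes Gdf3 (-0.76) and Nodal (-0.67) fell less, and Pcsk6, a protease that processes Nodal, rose by 0.50. Of the pathway, 3 genes were lower without TKO 35 and 2 without TKO 37, 8 were lower and 6 higher without Ctrl 33, and 8 lower and 4 higher without Ctrl 34, where the median was -0.16. The fibroblast and matrix genes described below fell in the same clones, 20 of 30 with a median of -1.17, and their part in these falls was not tested.

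Few core pluripotency genes passed the test. Of 27 naive and core genes 2 were lower and 1 higher (3.75% and 2.31% of all records), none by 2.5-fold, and the median was -0.16. Pou5f1, which encodes Oct4, had 25851 and 28353 normalized counts in Ctrl against 15674 and 15549 in TKO clones (-0.80, SE 0.10, adjusted p = 0.0188 in edgeR's test), without overlap. L1td1, whose product binds RNA in pluripotent cells, fell by 0.58 and Tfcp2l1, a naive pluripotency factor gene, rose by 0.49. These 3 calls were lost without TKO 35 and without TKO 37. Dppa5a, the most expressed member, had 51660, 78261, 86702 and 83336 counts in clone order and did not pass (0.39, adjusted p = 0.252). Retroviral Oct4 reads cannot be told from endogenous ones. Among 17 primed epiblast genes Cdh2, the N-cadherin gene, was lower (610 and 695 against 237 and 235, -1.47, adjusted p = 0.0161), and the median was -0.61. Lin28b, which blocks let-7 maturation, had 381 and 521 against 131 and 149 counts (-1.69, SE 0.22, adjusted p = 0.0202). The let-7 targets Hmga2 (-0.78) and Trim71 (-0.48) were lower too, which makes 3 of 12 genes of that list. Neither Cdh2 nor Lin28b is among the 41 records called without each clone, and Hmga2 and Trim71 fell by less than 2.5-fold.

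**Figure D4:**
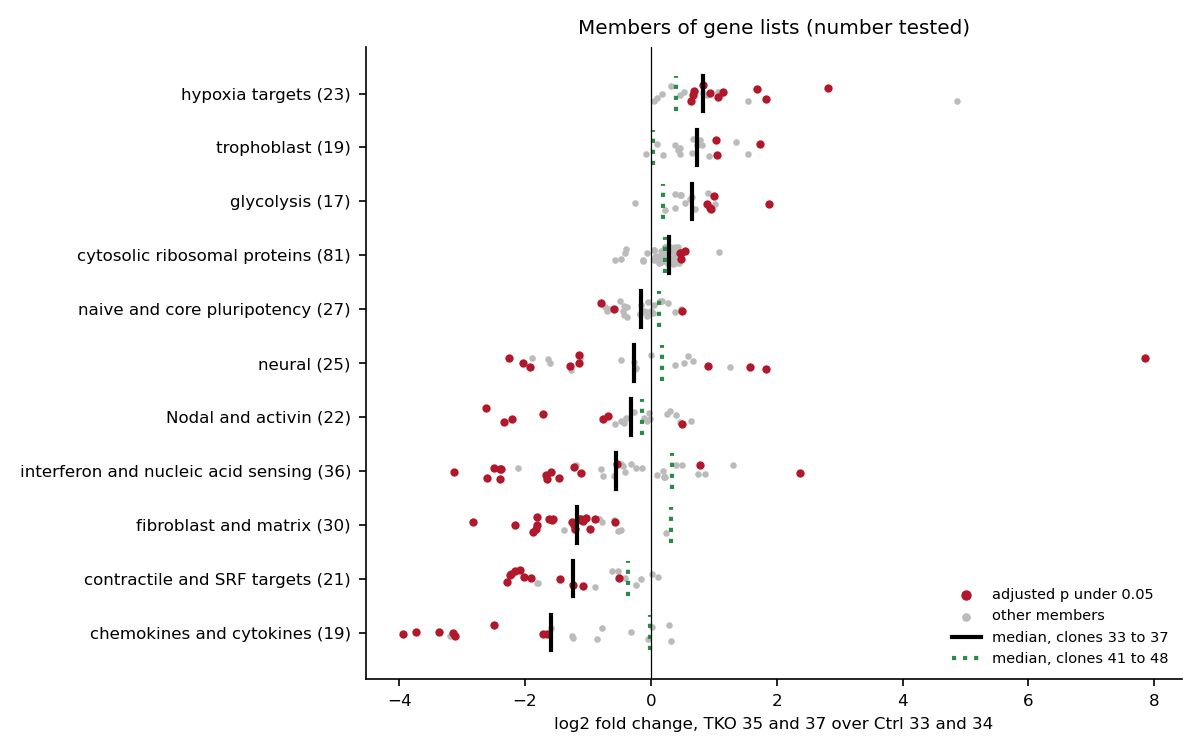
Log2 fold change of TKO 35 and TKO 37 over Ctrl 33 and Ctrl 34 for the tested members of 11 gene lists, in red where the adjusted p was under 0.05. Solid bars are the list medians in these clones and dotted bars those between TKO 47 and 48 and Ctrl 41 and 43. The medians run from -1.58 for chemokines and cytokines to 0.83 for hypoxia targets.

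The broadest falls were in genes of fibroblasts and their matrix. These cells had been derived from fibroblasts and their colonies were picked onto fibroblast feeders, and in bulk RNA fewer cells of a type and less RNA per cell cannot be told apart. Of 30 fibroblast and matrix genes 20 were lower and none higher in edgeR's test at an adjusted p under 0.05 (3.75% and 2.31% of all records), with a median of -1.17. The summed level of the list was 314774 normalized counts in Ctrl 33, 215292 in Ctrl 34, 134781 in TKO 35 and 121801 in TKO 37, and no member was at 0 in any clone. Tnc, the tenascin C gene (chromosome 4 from 63620819 to 63681760), had 28491 and 18955 counts in Ctrl against 6742 and 6782 in TKO clones (-1.81, SE 0.19, adjusted p = 0.0161). Has2, a hyaluronan synthase gene, had 501 and 413 against 53.7 and 74.3 (-2.82, adjusted p = 0.0122), and Fbn1, the fibrillin gene, 5124 and 3358 against 1236 and 1084 (-1.87, adjusted p = 0.0161). The mesenchymal transcription factor genes Twist2 (-2.15) and Prrx1 (-1.83), the collagen genes Col5a2 (-1.81), Col1a2 (-1.20) and Col3a1 (-0.89), Thy1 (-1.25) and Vim (-0.56) fell as well. For Tnc, Has2 and Fbn1 Ctrl 33 was highest and both TKO clones lay below both Ctrl clones. Tnc, Has2, Fbn1 and Col5a2 are among the 41 records. Without TKO 35 or TKO 37 the lower members were 6 and 5, and without Ctrl 33 or Ctrl 34 they were 27 and 28, and none was higher in these fits.

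Genes of the contractile cytoskeleton, which serum response factor (SRF) controls, fell as well. Of 21 tested 11 were lower and none higher, against 3.75% and 2.31% of all records, with a median of -1.24. Acta2, the smooth muscle actin gene (chromosome 19 from 34315580 to 34329826), had 18757 and 10249 normalized counts in Ctrl against 2941 and 3261 in TKO clones (-2.22, SE 0.27, edgeR adjusted p = 0.0182). Actg2 (-2.29), the myosin light chain gene Myl9 (-2.23), the myosin kinase gene Mylk (-2.16), calponin Cnn1 (-2.07), Abra (-2.02), transgelin Tagln (-1.90) and zyxin Zyx (-1.44) also fell by over 2.5-fold, and Tpm2 (-1.24), Cald1 (-1.07) and vinculin Vcl (-0.50) by less. In Ctrl 41, Ctrl 43, TKO 47 and TKO 48, Mylk had 41.6 to 60.8 counts, scaled over all 8 clones. Actg2 had 158 to 310 and Cnn1 202 to 416 there, so Ctrl 33 and Ctrl 34 were the highest clones for these genes. Acta2 had 5861 to 9105 and Myl9 1004 to 1897 in those clones, above TKO 35 and TKO 37. Acta2, Actg2, Myl9, Tagln and, of the immediate early genes below, Ptgs2 are among the 41 records. Without TKO 35 or TKO 37 there were 4 lower members in each case, without Ctrl 34 there were 19, and without Ctrl 33 there were 15 lower and 3 higher. Of 9 YAP targets 3 were lower, among them Ankrd1 (778 and 357 against 101.4 and 116, -2.36, adjusted p = 0.0286) and F3 (-1.24). The prostaglandin synthase gene Ptgs2 (2706 and 1794 against 587 and 662, -1.84, adjusted p = 0.0169) and the AP-1 subunit gene Fosl2 (-1.44) were lower, of 28 immediate early genes, and the other one that passed, Egr3, reached 5 reads in the Ctrl libraries alone. The fibroblast list moved with these genes in the same clones, and its part in these falls was not tested. The CArG box, the DNA element of SRF, was found in the promoters of 2 of 8 lower members with a RefSeq promoter, Myl9 and Vcl, and in 3 of 9 other members, against 1.81% of all genes. These stretches are shown with the box in capitals.
Myl9 (chr2:156775293-156775322, plus strand): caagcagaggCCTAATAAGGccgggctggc
Vcl (chr14:20929161-20929190, plus strand): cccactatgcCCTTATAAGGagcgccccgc

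Chemokine and cytokine genes had the lowest median of the 41 lists, -1.58. Of 19 tested 8 were lower, all by over 2.5-fold (1.99% of all records), and none was higher. Ccl2, the monocyte chemoattractant gene (chromosome 11 from 81849073 to 81850955), had 1284 and 965 normalized counts in Ctrl against 107 and 109.7 in TKO clones (-3.37, SE 0.20, adjusted p = 0.00474 in edgeR's test), and Ccl7, also on chromosome 11, had 671 and 523 against 95.8 and 114 (-2.50, adjusted p = 0.0122). Cxcl5, a neutrophil chemokine gene, had 160 and 104 against 4.43 and 11.8 (-3.94, SE 0.46, adjusted p = 0.0170). Il1rl1, the interleukin 33 receptor gene, had 453 and 320 against 46.5 and 42.1 (-3.11, adjusted p = 0.0115). These 4 genes are among the 41 records, and in all of them both Ctrl clones lay above both TKO clones. Il6 (98.5 and 103 against 8.86 and 13.7, -3.14, adjusted p = 0.0152), Ppbp (-3.73), Cxcl12 (-1.71) and Tnfsf15 (-1.66) fell as well. Of the list 5 genes were lower without TKO 35 and 5 without TKO 37. Fibroblasts make many of these factors, the fibroblast list fell in the same clones, and its part in these falls was not tested.

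Of 36 genes of the interferon response and of nucleic acid sensing, 13 were lower and 2 higher, with a median of -0.56, against 3.75% and 2.31% of all records. The lower genes included the Schlafen genes Slfn3 (176 and 323 normalized counts against 35.4 and 22.7, log2 fold change -3.13, SE 0.38, edgeR adjusted p = 0.0182), Slfn4 (-2.61), Slfn9 (-2.38) and Slfn2 (-1.66), which lie on chromosome 11, where Ctrl 34 was high. Ifi44 had 93.2 and 73.3 against 17.7 and 13.2 (-2.40, adjusted p = 0.0194), and the interferon-induced genes Usp18 (-2.49), Ifit1 (-2.39), Ifit2 (-1.64) and Isg15 (-1.59) fell from lower levels, such as 77.2 and 49.3 against 17.2 and 23.2 for Isg15. The RNA sensor gene Ddx58 (-1.46), B2m (-1.23), Sting1 (-1.12) and Ifitm3 (-0.54) fell too. Ciita, the class II transactivator gene, rose from 7.99 and 9.86 to 51.5 and 44.5 (2.37, adjusted p = 0.0284) and Stat2 by 0.78. Without TKO 37 none of the 34 genes then tested passed in edgeR's test, without TKO 35 there were 3 lower, and without Ctrl 33 or Ctrl 34 there were 18 and 17 lower, with 6 and 5 higher. The fibroblast list fell in the same clones, 20 of 30 genes, and its part in these falls was not tested. The interferon-response motif GAAA, then any 2 bases, then GAAA, searched on both strands, was in 6 of 11 promoters of lower members and in 6 of 19 of other members, against 3.99% of all genes. It is shown in capitals for a pair of the lower genes, the second on its opposite strand.
Isg15 (chr4:156200877-156200906, minus strand): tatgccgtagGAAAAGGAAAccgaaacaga
Ifit1 (chr19:34640775-34640804, plus strand): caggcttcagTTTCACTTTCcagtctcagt

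Other signalling lists had few members past the test, where 3.75% of all records were lower and 2.31% higher. The bone morphogenetic protein (BMP) antagonist gene Grem1 had 2394 and 1598 normalized counts in Ctrl against 470 and 608 in TKO clones (log2 fold change -1.88, edgeR adjusted p = 0.0182, among the 41), and with the receptor gene Bmpr1b (-2.72, adjusted p = 0.0341) made up the 2 of 22 BMP genes that were lower. Of 51 WNT genes 3 were lower, the ligand gene Wnt5a (410 and 334 against 70.3 and 87.0, -2.23, adjusted p = 0.0152), Notum (-1.24) and Wls (-0.75). Of 31 FGF and ERK genes Fgf7 (565 and 434 against 120 and 128, adjusted p = 0.0152), Fgf2 (-1.99) and Fgf10 (-1.08) were lower and the receptor gene Fgfr4 higher (133 and 80.3 against 323 and 323, 1.64). In the LIF and gp130 list the oncostatin M receptor gene Osmr was lower (360 and 330 against 107 and 99.8, -1.73, adjusted p = 0.0161), and Socs3 (0.58) and Tfcp2l1 (0.49) were higher, of 19 tested. Grem1, Wnt5a, Fgf7 and Osmr fell in the same clones as the fibroblast list. Without TKO 35 none of the FGF, WNT or LIF genes passed in edgeR's test, and without TKO 37 the same was true but for 1 WNT gene. Without Ctrl 33 there were 13 higher and 9 lower WNT genes and 11 higher and 7 lower FGF genes, and without Ctrl 34 there were 1 and 13 and 5 and 13.

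Of 29 cell cycle genes 2 were lower and 3 higher (3.75% and 2.31% of all records), with a median of 0.13. The cyclin D gene Ccnd2 had 4871 and 2999 normalized counts in Ctrl against 912 and 979 in TKO clones (-2.05, SE 0.23, edgeR adjusted p = 0.0161, among the 41) and Ccnd1 had 7241 and 4820 against 1919 and 2081 (-1.59, SE 0.20, adjusted p = 0.0182). Ccnb2 (0.63), Mki67 (0.54) and Aurkb (0.49) were higher, with no overlap, and the other 24 cell cycle genes did not pass. The cyclin D calls were kept without each TKO clone and the 3 rises were not.

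Lineage genes were set beside all records, of which 2.31% were higher and 3.75% lower. Among lineage genes the trophoblast list had the highest median, 0.74. Of its 19 tested genes Hand1 (325 and 197 normalized counts against 677 and 1024, 1.73, edgeR adjusted p = 0.0341), Esx1 (1.06) and the keratin gene Krt19 (1.04) rose. Of the 19 genes, 6 lie on chromosomes 11 and X, and the median of the other 13 was 0.44. Of 25 neural genes 6 fell and 4 rose. Grin1, an NMDA receptor subunit gene, had 0 reads in both Ctrl libraries and 41 and 49 in the TKO libraries, which is at least 8.31-fold higher if 3 reads are allowed over the 2 Ctrl libraries. It reached the minimum of 5 reads in the TKO libraries alone, which were the deeper ones, so its place among the 4 rises is not a result. Cbln1, a synapse organizer gene, rose from 128 and 159 to 522 and 513 (1.83, adjusted p = 0.0152), Sema5a by 1.57 and Olig2 by 0.91. Nrsn1 (221 and 196 against 47.6 and 39.7, -2.25), Nsg2 (-2.02), the growth cone gene Gap43 (-1.91), Pax6 (-1.29), Tubb3 (-1.14) and nestin Nes (-1.14) fell. No neural gene passed in edgeR's test without TKO 35 or without TKO 37, while 15 did without Ctrl 33 and 16 without Ctrl 34. Among 23 endoderm genes Hnf4a rose (69.2 and 52.1 against 230.4 and 192, 1.83) and thrombomodulin Thbd fell (1502 and 1095 against 365 and 334, -1.89, among the 41). The endothelial genes Mmrn2 (-1.50) and Apold1 (-2.17) were lower, 2 of 23, and of 9 blood genes Gata1 was higher (1.17).

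Metabolic genes were counted next, beside all records, of which 2.31% were higher and 3.75% lower. Of the genes named here only Aass and St8sia1 are among the 41 records. Of 20 genes of lysine, threonine, glycine and serine metabolism, Aass and Sardh, the sarcosine dehydrogenase gene (82.6 and 66.2 normalized counts against 23.3 and 24.6, -1.61, edgeR adjusted p = 0.0319), fell, and Dmgdh (1.48), Cbs (1.99) and the glycine decarboxylase gene Gldc (0.64) rose. Cbs was at 10.7 and 7.05 in Ctrl and at 36.6 and 30.7 in TKO clones. Of 10 ganglioside genes St8sia1 rose and St3gal1, another sialyltransferase gene, fell by 1.14. Of 27 cholesterol genes Fdps (0.53), Dhcr7 (0.59) and Msmo1 (0.66) rose, with a median of 0.33. Ribosomal protein genes (4 of 81 higher, median 0.28) and oxidative phosphorylation genes (3 of 88 higher, median 0.24) were shifted by less than 1.5-fold in their medians. Without Ctrl 33 the ribosomal protein genes called were 57 higher and 4 lower and without Ctrl 34 they were 39 and 4, and without either TKO clone none passed in edgeR's test.

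Genes that act with or near PIWI proteins gave few calls, where 2.31% of all records were higher and 3.75% lower. None of those named here is among the 41 records. Of 15 piRNA pathway partners the helicase gene Mov10l1 rose (197 and 180.4 normalized counts against 387 and 340.1, 0.95, edgeR adjusted p = 0.0415), and the abundant partners Prmt5 (-0.22, adjusted p = 0.202) and Wdr77 (-0.16, adjusted p = 0.335) did not pass. None of 13 Argonaute and microRNA processing genes passed, nor any of 13 DNA methylation enzyme genes or 18 genes of H3K9 methylation and KRAB silencing (edgeR). Of 30 germline and meiosis genes Npm2, an oocyte chaperone gene, fell (85.2 and 134 against 18.8 and 13.2, -2.81, adjusted p = 0.0182) and the meiotic cohesin gene Rec8 rose by 0.71. Their summed level was 11084 in Ctrl 33, 24291 in Ctrl 34, 13295 in TKO 35 and 13015 in TKO 37, and the median change of -0.28 became 0.34 without Ctrl 34. Of 17 two-cell-stage genes none passed in edgeR's test (12 were higher without Ctrl 33), and Ctrl 34 was the lowest clone, with a summed level of 3842 against 8262 to 9521. In the Dlk1-Dio3 imprinted cluster Rian fell by 0.73 (adjusted p = 0.0457), and Meg3 had -0.79 and an adjusted p of 0.0502. Of 28 other imprinted genes Kcnq1ot1 fell by 0.55 and Copg2 rose by 0.61. Of 26 genes of the p53 pathway Trp53inp1 rose by 0.55 and none fell. Xist had 714 and 507 counts in Ctrl against 367 and 385 in TKO clones (-0.69, adjusted p = 0.0945), and the Y-linked genes Ddx3y and Uty were at 2.66 to 8.46 counts in all 4 clones.

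Close to the targeted loci 4 of 61 tested genes (6.56%, against 2.47% of all records) within 1 Mb of a Piwi gene were called, and 3 of them are among the 29 tested near *Mili*. With no threshold on the fold 9 of the 61 passed, 8 of them near *Mili*, against 6.06% of all records. These counts include Egr3, for which a limit is given below. Phyhip, 28.4 kb from *Mili*, rose from 58.6 and 63.4 to 188 and 163 normalized counts (1.51, SE 0.23, edgeR adjusted p = 0.0277). Npm2, at 218 kb, fell as given above. Egr3, at 292 kb, an immediate early gene, had 6 and 7 reads in Ctrl and 2 and 0 in TKO libraries, which gives a Ctrl level 23.5-fold that of TKO with an exact binomial 95% interval from 5.31 to 214 that covers counting error only. It reached the minimum of 5 reads in the Ctrl libraries alone, so its place among the called genes is not a result. Maml2, 987 kb from *Miwi2*, fell from 39.9 and 24.0 to 8.31 and 6.15 counts (-2.06, adjusted p = 0.0444). Of the 11 genes near *Miwi* none was called. Phyhip, Npm2 and Maml2 are not among the 41 records called without each clone.

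The changes were set beside those between TKO 47 and TKO 48 and Ctrl 41 and Ctrl 43, which share no library with the clones described here. In those clones, fitted alone, 52 of 16347 records (0.318%) passed both thresholds, and 81 (0.496%) were higher and 161 (0.985%) lower at an adjusted p under 0.05. Of the 82 records that were higher in TKO 35 and 37, 81 were tested there, and 70 of these had the same sign, 41 (50.6%) without overlap, where 26.5% of all records were higher without overlap. Of the 333 lower records 327 were tested, 207 had the same sign and 128 (39.1%) were lower without overlap, against 27.1% of all records. The median change of the higher records was 1.70 in the one set of clones and 0.78 in the other, and that of the lower records -1.86 and -0.21. Of the 41 records called without each clone, 29 kept their sign. With the same sign and an adjusted p under 0.05 in edgeR's fit of those clones alone were 11 of the 81 higher (13.6%) and 22 of the 327 lower records (6.73%). Another 2 lower records passed there with the opposite sign. Among those that passed with the same sign in both sets were Gm12191 (-7.28 and -7.04), Aass (-4.29 and -3.82), Eno1b (3.72 and 3.45), AI662270 (-3.24 and -3.08), St8sia1 (2.65 and 2.15), Epas1 (-1.69 and -1.33) and Bnip3 (1.68 and 1.42).

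A test of the difference itself, in 1 fit of all 8 libraries, found 226 of 17390 records (1.3%) whose change differed between the sets, 181 of them (1.04%) with the lower value in TKO 35 and 37. Cytokine, Nodal inhibitor, contractile and matrix genes were among them. For Ccl2 the change was -3.37 here and 0.93 in the clones of the forties (interaction adjusted p = 0.000182 in edgeR), for Lefty2 it was -2.61 and 0.03 (0.0171), for Acta2 -2.22 and -0.33 (0.0395), and for Ccnd2 -2.05 and 0.15 (0.0291). Of the 30 fibroblast and matrix genes 13 differed, and their median was -1.17 here and 0.32 there. Of 27 cholesterol genes 7 differed, with medians of 0.33 and -0.26. Of 23 hypoxia targets none differed at that threshold, with medians of 0.83 and 0.41. The interaction rested on single clones even more than the calls did. Without Ctrl 41, Ctrl 43 or TKO 35 the 1 record left was Ccl2, without TKO 37 there were 2, Ccl2 and Ccl7, and without TKO 48, TKO 47, Ctrl 34 or Ctrl 33 there were 58, 579, 697 and 1274. The fibroblast markers differed between the sets as well. So did the Y-linked gene Ddx3y, which had 172, 268, 133 and 181 counts in Ctrl 41, Ctrl 43, TKO 47 and TKO 48 and 5.20 to 8.46 in the clones of the thirties. The part of either in these differences was not tested.

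**Figure D5:**
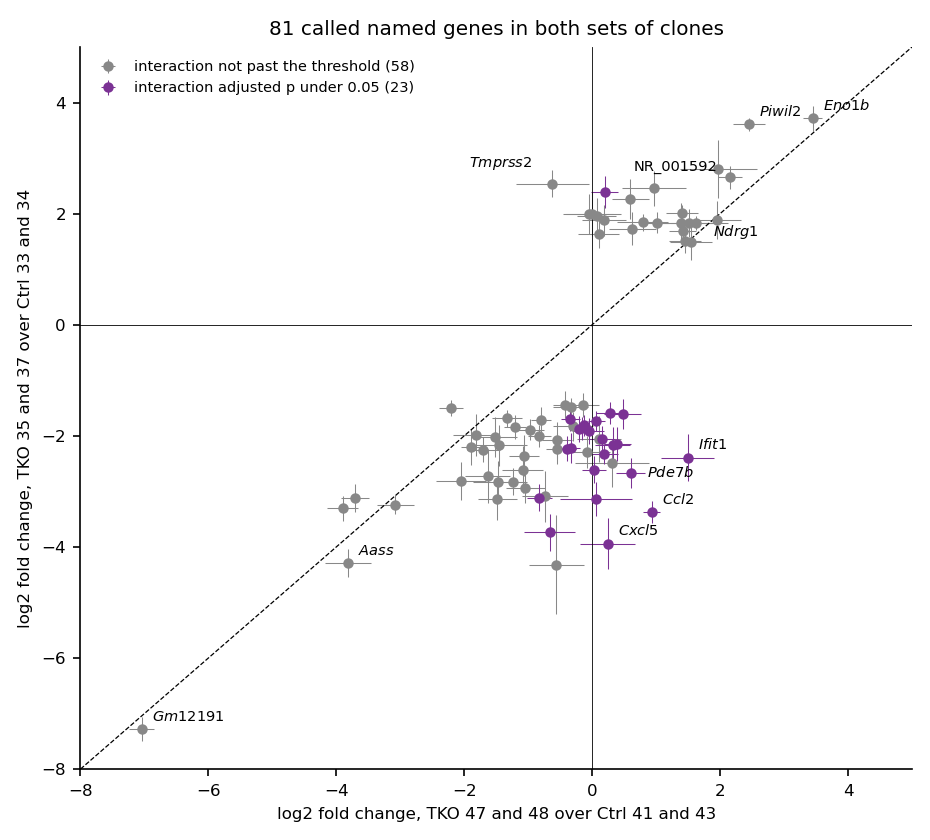
Log2 fold change between TKO 47 and 48 and Ctrl 41 and 43 (horizontal) and between TKO 35 and 37 and Ctrl 33 and 34 (vertical) for 81 called named genes, with SE as bars and equality as the dashed line. Genes whose change differed in the interaction test (23, purple) lie mostly below 0 on the vertical axis and near 0 on the horizontal axis, and Gm12191, Aass and Eno1b lie close to the dashed line.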

How the data were processed

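The authors sequenced TruSeq RNA libraries of single iPSC clones from one end and aligned the reads to mm9 transcripts with BWA, whose version the submitters give as 0.7.5a. They deposited whole-number read counts per RefSeq record, neither scaled nor filtered. How reads matching several records were assigned, and whether strand was used, is not given in the sources used here, so near-identical and antisense genes are uncertain. Symbols came from a RefSeq table (26317 records) and the paper (2 records), and 733 records have none. Coordinates are mm9.

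Counts of the 4 libraries were scaled with median-ratio size factors (0.375 to 2.11), and TKO and Ctrl were compared with edgeR 4.0.16 (R 4.3.3), quasi-likelihood test without robust estimation, on records that reached 5 reads in 2 or more libraries. The common biological coefficient of variation was 0.141, with 2 residual degrees of freedom. A call is a Benjamini-Hochberg adjusted p under 0.05 and a 2.5-fold change, the thresholds of the paper. SE is from the fold change and the F value. The interaction was fitted on all 8 libraries.

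The clones, gene lists (41, described by counts and medians) and rules were chosen with earlier results of these data known. For each symbol the record with the highest mean count was used. Named were the Piwi genes, the 15 highest and 15 lowest called genes with at least 50 normalized counts and no overlap, as many as 5 called genes per list (where it had none, the 2 with the highest counts), the 6 largest interactions, Xist and Y-linked genes, called genes near Piwi genes and parents of retrocopies. Other genes given are members of the lists that passed, and the values of a few named genes are not reported here. Alternatives were TMM, DESeq2 1.42.0, no filter, a minimum of 10 reads throughout, limma-voom 3.58.1, robust estimation, counts per symbol, thinning to the smallest library, the exact test, a test against 2.5-fold, pooled spread, and leaving out each clone. The main fit, the interaction fit, DESeq2 and limma-voom were tested on simulated counts, and the other alternatives were not.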

Additional observations from a re-analysis of the deposited data

Results flagged for a closer look

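The change between the genotypes differed between the clones of the thirties and those of the forties for 25 named genes in edgeR's interaction test, given here as the log2 fold change in the former minus that in the latter. Among cytokine genes the difference was -4.29 for Ccl2, -4.18 for Cxcl5, -3.20 for Il6, -3.06 for Ppbp and -2.27 for Il1rl1. Among Nodal, growth factor and receptor genes it was -2.64 for Lefty2, -2.50 for Lefty1, -1.83 for Wnt5a, -1.79 for Osmr and -1.68 for Grem1. Among matrix, contractile and mesenchymal genes it was -2.54 for Twist2, -2.48 for Mylk, -1.89 for Acta2, -1.70 for Fbn1 and -1.68 for Tnc. The interferon-induced genes Ifi44 and Ifit1 had -4.38 and -3.89, Pde7b had -3.26, Ccnd2 -2.20, Sardh -2.08, Ccnd1 -1.86, Gap43 -1.85 and Lin28b -1.35. It was above 0 for NR_001592 (2.20) and Hmgcs1 (1.19). In the clones of the forties Ifi44 had only 2.04 to 16.3 normalized counts and Il6 only 5.01 to 12.8. Ifi44 did not reach the read minimum when those clones were fitted alone. Pde7b, a cyclic AMP phosphodiesterase gene, had 98.5 and 88.8 normalized counts in Ctrl 33 and Ctrl 34 and 15.5 and 13.7 in TKO 35 and TKO 37. All of these genes but Ccl2 lost the interaction call without Ctrl 41, without Ctrl 43 or without TKO 35.

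On 3 chromosomes 1 clone lay far from the other clones of its genotype in the median log2 ratio to the mean of the 8 clones. Ctrl 34 was at 0.31 on chromosome 11 and at -0.083 on chromosome 19, and TKO 48 was at 0.30 on chromosome 7. In the 4 clones of the thirties Ctrl 34 was the highest clone for 64.4% of 812 records of chromosome 11 and for 71.9% of 320 records of X, against 25.1% of records elsewhere. Chance alone sets about 1 in 20 such groups apart, and 40 were examined.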

How the results depend on the processing

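The count of 415 records past both thresholds was between 352 and 584 under TMM scaling, DESeq2, a minimum of 10 reads in each library, limma-voom, robust estimation, counts per symbol, the ratio of group means and the spread pooled over 8 clones. It moved to 701 with no filter, 226 with libraries thinned to the smallest total, 707 with edgeR's exact test and 7 in the test against a 2.5-fold change itself. Leaving out 1 clone gave 50 (without TKO 37) to 1210 (without Ctrl 33). The 1016 records with an adjusted p under 0.05 became 2350 with no filter, 1675 with DESeq2, 491 when thinned, 2243 with the exact test, 1922 with the pooled spread, and 51 (without TKO 37) to 6922 (without Ctrl 33) when 1 clone was left out. The 226 interaction records became 671 with no filter, 934 with DESeq2, 118 when thinned, and 1 (without Ctrl 41, Ctrl 43 or TKO 35) to 1274 (without Ctrl 33). Without records of chromosomes 11 and X, an alternative chosen after seeing the data, the counts were 495, 1486 and 333. All 84 called named genes kept their direction in the alternatives run for single genes. Those did not include robust estimation, counts per symbol, the exact test, the test against 2.5-fold or the ratio of group means. Where the clones of the genotypes did not overlap, leaving out 1 clone could hardly turn the sign, so those fits are no check of direction. Among genes reported that did not pass, the log2 fold change turned sign when 1 clone was left out, with ranges over the 4 fits of -0.021 (without TKO 35) to 0.27 for Ago2, -0.069 (without TKO 35) to 0.26 for Igf2r, -0.066 (without Ctrl 34) to 1.21 for Zscan4a, -0.097 (without Ctrl 34) to 0.44 for Rplp0, -0.081 (without Ctrl 34) to 0.13 for Dnmt1, which also turned without TKO 35, -0.54 to 0.83 (without Ctrl 34) for Uty, which also turned without TKO 35, and -1.31 to 0.36 (without TKO 37) for Eno1, which also turned without Ctrl 33. The causes were not tested. No paired analysis was possible because TKO and Ctrl clones carry different numbers. Depth limits the Ctrl side, since 1282 records reached 5 reads in the TKO libraries alone, of which 7 were called higher. Another 12 reached 5 reads in the Ctrl libraries alone, of which 10 were called lower. All of these entered the test through a single genotype.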
